A study of Mus musculus with 53 samples.

Results

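The lung tumours described here grew in 13 mice of genotype KLTC that received a pool of barcoded vectors and were taken at 15 weeks. They were selected by the genotype, the time and the virus given in the sample labels, which left 13 of the 53 mice and 44743 of the 409584 listed tumours. Each vector carried a guide against 1 of 11 tumour suppressor genes, or an inert guide, plus a short DNA barcode. Each infected cell passed its barcode to all its descendants, so the cells carrying a barcode in a lung gave the size of that tumour. DNA came from whole lungs, and the barcodes were amplified and sequenced.

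By the usual naming of these strains, T is a Cre-dependent fluorescent reporter, C the Cas9 nuclease, and L an Lkb1 allele that Cre deletes. Every tumour of the 13 mice, the inert ones included, therefore arose in a lung whose genotype lets Cre delete Lkb1. Two-letter prefixes in the mouse identifiers split them into 7 mice (IW, mice 1 to 7 below) and 6 mice (ZR, mice 8 to 13), and the labels do not say what a prefix stands for. Mouse numbers follow the order of deposition. The comparison genotypes were 10 KTC mice, without the L allele, and 12 KPTC mice, in which Cre deletes p53 instead, both with the same pool at 15 weeks. The other 18 mice carried single-guide vectors for 9 weeks. Editing of the targeted genes and RNA of the tumours were not measured in these values, so neither the loss of a target nor the cell type was checked here.

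Tumour suppressors restrain growth in different ways. Lkb1 (Stk11) is a kinase that activates AMPK and related kinases, and its loss is common in human lung adenocarcinoma. A guide against a gene that the genotype has already deleted has nothing further to inactivate in a recombined cell, which makes the Lkb1 guide a further control in KLTC mice. APC is a scaffold protein through which beta-catenin is destroyed, Rb1 holds cells before S phase, and Setd2 places trimethylation on lysine 36 of histone H3.

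The barcodes are shown because a tumour is defined by its barcode, and because many barcodes recurred. Each was 21 bases long, written 5′ to 3′, and the capitals mark the bases that were the same in most barcodes, a pattern held by 89.5% of the listed tumours. The first 3 were those listed in the most of the 53 mice.
Setd2, 31 mice: AAtgaggTTctaacAAcggct
APC, 31 mice: AAaggccTTaaggaAAcagcg
P53, 30 mice: AAgatcgTTcaccgAAtctaa
Each of the 3 reached its largest size in mouse 6 among the KLTC mice. The Setd2 barcode was found in 8 of the 13 mice, with 3475 cells at the lowest, 8606 at the median and 133544 at the highest. The APC barcode was found in 9 of them, with 990, 8964 and 111145 cells. The next barcodes belong to the largest KLTC tumour of 5 targets called in some comparison below, and of the inert vectors.
APC, mouse 12, 5529186 cells: AAcacgcTTaacgaAAttgcg
Setd2, mouse 4, 3429138 cells: AAtccacTTcattaAAccggg
Cdkn2a, mouse 4, 4670006 cells: AAccggtTTgcctcAAtagcg
Smad4, mouse 13, 3328732 cells: AAgcgtcTTcacggAAttctc
P53, mouse 12, 110797850 cells: AAtatccTTttacaAAttttg
Inert, mouse 10, 12474392 cells: AAaggatTTtcatgAAttatg
The large APC barcode was listed in 13 mice in all, with 15010 cells at most outside mouse 12. The inert one was listed in 17 mice, the Cdkn2a one in 20 and the Setd2 one in 27.

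A small tumour was called matched where the same target and barcode was at least 10 times larger in another mouse. Of the 44743 tumours, 13536 were matched (30.3%), and the larger copy was a median of 310 times the size. It lay in another KLTC pool mouse for 80.7% of them. Matched tumours were small: 36.3% of those from 500 to 1000 cells, 33.0% from 1000 to 10000 cells, 5.62% from 10000 to 100000 cells and 0.673% from 100000 to 1000000 cells. None of the 252 tumours of at least 1000000 cells was matched, and each of them was also listed in some other mouse, 12 mice at the median. Every comparison below was therefore made on all listed tumours and again without matched ones.

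The mice differed widely in tumour load. They held 723 to 15067 listed tumours (median 2856), with the highest number in mouse 6, and 2248279 to 598446890 cells in those tumours (median 94042824). No tumour under 500 cells was listed. The inert tumours numbered 171 to 4279 per mouse (median 751), and their 95th percentile ranged from 8260 to 447024 cells. That percentile was 5.59-fold higher in the 6 ZR mice than in the 7 IW mice (geometric means of 229225 and 40983 cells; 2-sided exact permutation test, p = 0.0303), and the p was 0.053 without mouse 12 and 0.0518 without mouse 13. Among tumours of at least 5000 cells the difference went from 2.48 to 0.86 on the log2 scale (p = 0.238, same test). All ratios were therefore taken within a mouse, as log2 of the target's value over the inert value, and then averaged over mice. A target was called where a 2-sided exact sign-flip permutation test over mice gave an adjusted p under 0.05 after Benjamini-Hochberg adjustment over the 11 targets; with 13 mice the smallest unadjusted p is 0.000244. Keap1 and Rbm10 had at least 20 tumours in 12 of the mice and the other targets in all 13.

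Among the signalling genes, APC tumours were larger than inert tumours at the upper end of the size range. The 95th percentile of APC tumours was 12339 cells at the lowest, 268014 at the median and 647573 at the highest of the 13 mice, against 8260, 99086 and 447024 for inert tumours. The ranges overlapped between mice, and within a mouse APC was the higher in 11 of 13, the exceptions being mice 3 and 7. The mean log2 ratio was 0.74 ± 0.74 (SD, n = 13), a 1.66-fold difference (exact sign-flip permutation test, p = 0.00146, adjusted p = 0.0161). APC was the only target of 11 called at this percentile (9.09%), and the same held at the 90th percentile (9.09%), where its ratio was 0.92 ± 0.90 and was above 0 in 11 of 13 mice. At the median size no target was called and none had an unadjusted p under 0.05 (0%). The APC median of 1335 cells in the middle mouse stood beside 1235 cells for inert, a log2 ratio of 0.12 ± 0.27.

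The share of APC tumours of at least 100000 cells was 0% at the lowest, 9.38% at the median and 16.2% at the highest mouse. The inert share was 0.491%, 4.93% and 14.8%. With 0.5 added to each number of tumours, the ratio was above 0 in all 13 mice (0.06 at the lowest, 0.37 at the median, 0.94 at the highest; mean 0.47 ± 0.32, 1.39-fold; exact sign-flip permutation test, adjusted p = 0.00269), and APC was again the only target called (9.09%). In mouse 1 no APC tumour of 30 was that large, which allows a share of up to 10%, and its positive ratio rests on the 0.5 added. Mouse 1 was the mouse at 0% for 9 of the 11 targets, with 24 to 110 tumours of each, which allows shares of up to 2.73% (P53) to 12.5% (Smad4), from counting error only. In percentage points APC exceeded inert by 1.88 ± 1.76, in 12 of 13 mice (adjusted p = 0.0134, same test). The mean number of cells per APC tumour was 4230 at the lowest, 44317 at the median and 139486 at the highest mouse, against 3419, 29622 and 93770 for inert. That was a 1.32-fold difference (log2 0.40 ± 0.38, 10 of 13 mice, adjusted p = 0.0215, same test), the only one of 11 called (9.09%). The APC calls at the 90th and 95th percentile, in the ratio of the share of at least 100000 cells and in mean cells held when any 1 mouse was left out; the difference in percentage points was not run that way. By gene group, 1 of the 4 signalling and metabolic genes was called at the 95th percentile and in the share of at least 100000 cells, and 0 of the 2 cell cycle, 3 chromatin and RNA processing, and 3 p53 pathway and DNA damage genes, with Cdkn2a counted in both the cell cycle and the p53 group. The median ratio over the 11 targets was 0.24 at the 95th percentile and 0.08 in that share.

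**Figure D1:**
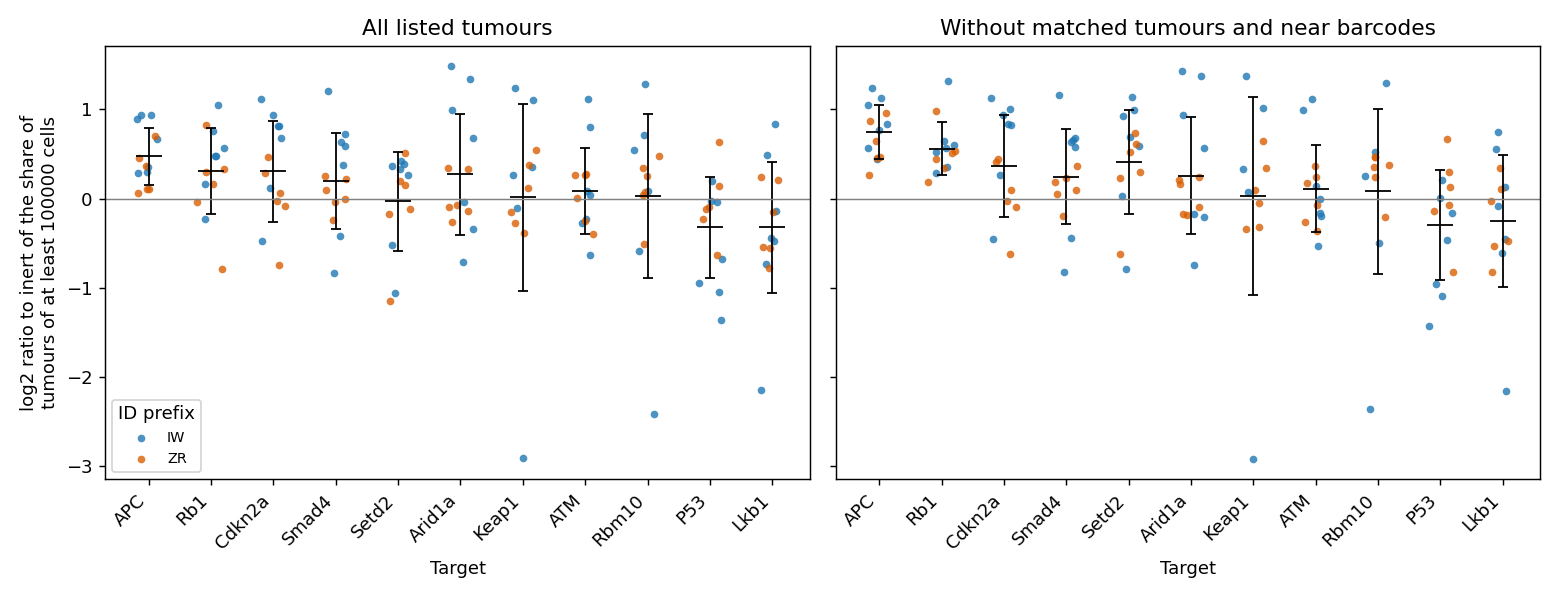
Share of tumours of at least 100000 cells for each target, as the log2 ratio to the inert share of the same mouse with 0.5 added to each number; every point is 1 KLTC mouse, coloured by identifier prefix, and the bar is the mean with its SD. The left panel uses all listed tumours and the right panel leaves out matched tumours and those with a barcode near a much larger one; APC lies above 0 in all 13 mice on the left, and APC and Rb1 do on the right, where as on the left the mouse 1 points of both come from 0 such tumours plus the 0.5 added.

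The APC ratio in the share of at least 100000 cells averaged 0.63 in the 7 IW mice and 0.30 in the 6 ZR mice. At the 90th percentile it averaged 1.38 and 0.39. Within a prefix the smallest unadjusted p is 0.0156 for 7 mice and 0.0313 for 6, and APC was not called in either alone. The APC calls changed with the tumours admitted. Among tumours of at least 5000 cells the APC ratio was 0.20 at the 95th percentile (adjusted p = 0.611, exact sign-flip permutation test). Among those tumours it was 0.23 in the share of at least 100000 cells (adjusted p = 0.0645, same test). At the 95th percentile the APC call was also lost once every mouse lost its top tumour per vector (0.62, adjusted p = 0.0725, same test), and without barcodes that any other mouse listed (0.38, adjusted p = 0.516, same test). The 90th percentile call was lost at a minimum of 1000 cells (0.52, adjusted p = 0.129, same test) and without barcodes listed elsewhere (0.43, adjusted p = 0.499, same test). The mean-cells call was lost at 1000 cells (0.27, adjusted p = 0.102, same test), at 5000 cells (0.15, adjusted p = 0.585, same test) and without barcodes listed elsewhere (0.29, adjusted p = 0.241, same test). Removing barcodes listed elsewhere kept 41.1% of tumours of 500 to 1000 cells and 7.11% of those of 100000 to 1000000 cells. It kept 0 of the 252 of at least 1000000 cells. The calls lost under that removal therefore cannot show whether the upper sizes differed.

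Leaving out matched tumours removed more APC than inert tumours, 1407 of 3657 (38.5%) against 3217 of 12177 (26.4%). The APC tumours of at least 100000 cells stayed at 273 and the inert ones went from 650 to 649, so the removal acted on the smaller tumours. The APC median was then 830 cells at the lowest, 2261 at the median and 173840 at the highest mouse, against 754, 1520 and 24434 for inert. APC was above inert in 13 of 13 mice, by 0.99 ± 0.96 on the log2 scale (1.99-fold; exact sign-flip permutation test, adjusted p = 0.00134). Its ratio was 0.83 ± 0.56 at the 95th percentile (12 of 13 mice, adjusted p = 0.00537, same test; 9.09% of targets called) and 0.75 ± 0.29 in the share of at least 100000 cells (13 of 13 mice, adjusted p = 0.00269; 9.09%). With the numbers of at least 100000 cells almost unchanged, that share ratio moved from 0.47 to 0.75 through the smaller tumours removed. Its rise therefore adds nothing on large tumours. The larger ratios at the median and the 95th percentile also moved with the larger matched share, and the part of that share in them was not tested.

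**Figure D2:**
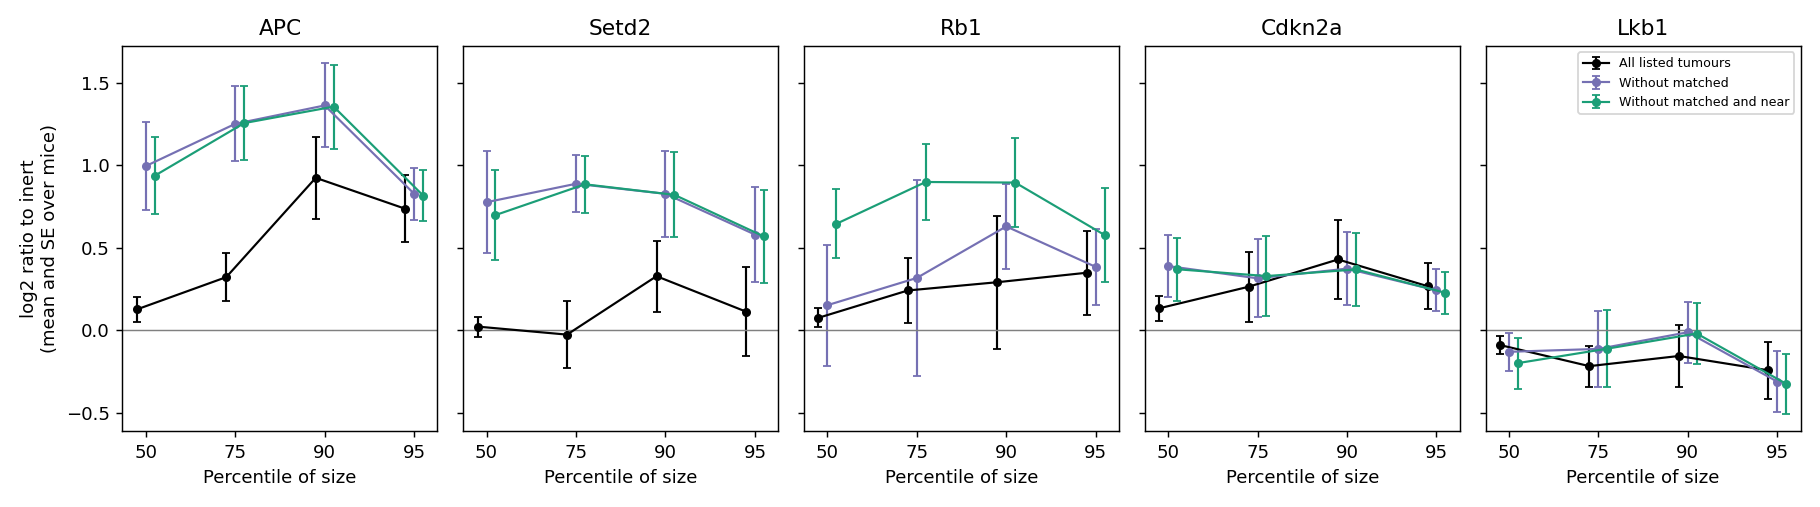
Mean log2 ratio to inert (± SE over mice) at the 50th, 75th, 90th and 95th percentile of tumour size for APC, Setd2, Rb1, Cdkn2a and Lkb1 in KLTC mice. Black is all listed tumours, purple is without matched tumours, and green is also without barcodes near a much larger one; the APC line on all tumours goes from 0.12 at the median to 0.92 at the 90th percentile.

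The other signalling and metabolic genes did not pass the test on all tumours. Smad4 transmits TGF-beta and BMP signals, and its 95th percentile was 10692 cells at the lowest, 172077 at the median and 471350 at the highest mouse (log2 ratio 0.25 ± 0.67, above 0 in 10 of 13). Keap1, which targets the oxidative stress regulator Nrf2 for degradation, averaged 0.24 and was above inert in 6 of 12 mice. The Lkb1 guide, the further control, had a 95th percentile of 6716, 164354 and 504064 cells. Its log2 ratio was -0.24 ± 0.62 at that percentile (5 of 13 mice above 0, adjusted p = 0.487, exact sign-flip permutation test) and -0.32 ± 0.74 in the share of at least 100000 cells (4 of 13, adjusted p = 0.296, same test). The mean cells per Lkb1 tumour had a ratio of -0.39 ± 0.60, with 4 of 13 mice above 0 (exact sign-flip permutation test, unadjusted p = 0.042, adjusted p = 0.231). The second control thus lay at or below the inert vectors without passing the test. Without matched tumours Smad4 rose in the share of at least 10000 cells, which was 5.99%, 31.3% and 67.2% against 4.80%, 20.8% and 55.7% for inert (log2 0.27 ± 0.32, 11 of 13 mice, adjusted p = 0.0114, same test).

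Rb1, of the cell cycle genes, is the pocket protein that represses E2F targets. Its call in the share of at least 100000 cells turned on a single mouse. Its share of tumours of at least 100000 cells was 0% at the lowest, 7.22% at the median and 23.0% at the highest mouse, with a log2 ratio of 0.31 ± 0.48 (10 of 13 mice above 0, adjusted p = 0.21, exact sign-flip permutation test). Without mouse 12 the ratio was 0.41 and passed (adjusted p = 0.0215, same test). Rb1 was also called at the 90th percentile without mouse 12, and in mean cells without mouse 7. Mouse 12 held the largest tumour of all, an Rb1 tumour of 162631950 cells that made up 27.2% of the tumour cells of that lung. Its barcode was listed in 13 mice, with 415823 cells in the next.

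Many other Rb1 barcodes of mouse 12 differed from that barcode at 1 or 2 positions. They are shown beside it to make the similarity visible, with capitals now marking the differing bases and positions counted from 1 at the 5′ end of the barcode as listed. The largest Rb1 barcode does not hold the pattern of common bases that 89.5% of the listed tumours hold.
Rb1 largest, mouse 12: aacgggttcgataacttctat
Rb1 near, T17C, 29630 cells: aacgggttcgataactCctat
Rb1 near, T7C, 19237 cells: aacgggCtcgataacttctat
Rb1 near, G6T and T7G, 17677 cells: aacggTGtcgataacttctat
Of the 389 Rb1 tumours of mouse 12, 186 (47.8%; 95% Wilson interval 42.9% to 52.8%, counting error only) lay within 2 mismatches of the largest, and 183 of them were listed in no other mouse. They held 528 cells at the lowest, 1464 at the median and 29630 at the highest. The other ZR mice listed 199 to 327 Rb1 tumours each. Over all vectors and KLTC mice, 332 of 44743 tumours (0.742%) had a barcode within 2 mismatches of a barcode at least 10 times larger in the same mouse and target, and 276 of the 332 were in mouse 12. Of those, 46 were P53 and 31 were inert tumours. The pattern of common bases was held by 19.3% of the 332 near barcodes, against 89.5% of all listed tumours. Whether these were separate tumours was not tested.

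**Figure D3:**
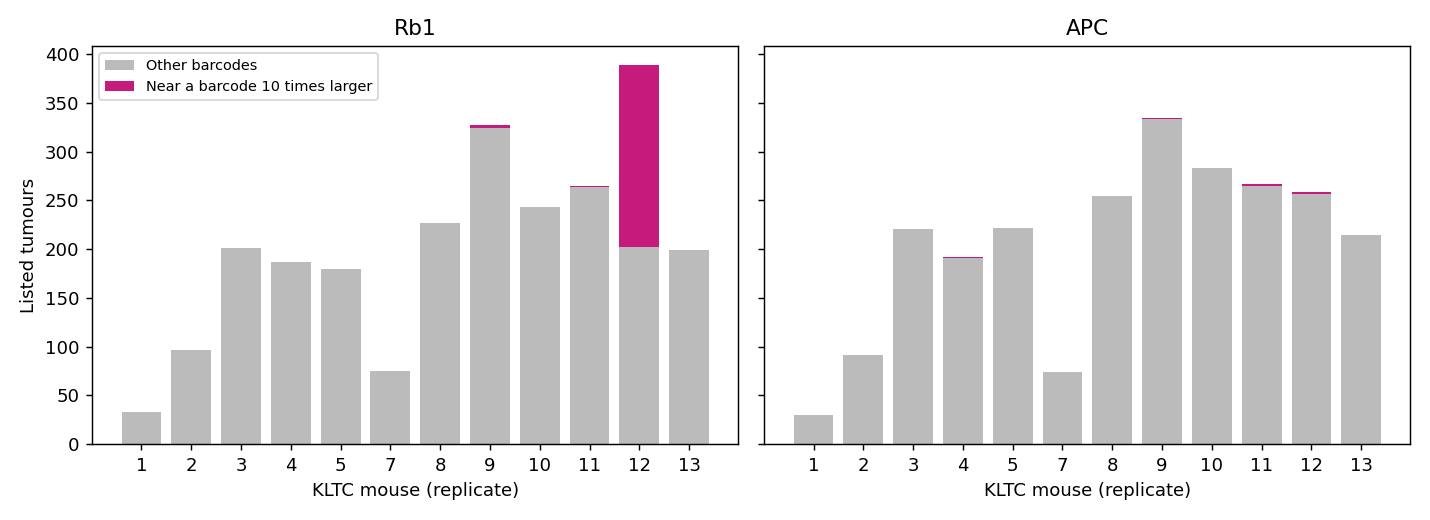
Number of listed Rb1 and APC tumours in each KLTC mouse, with the part whose barcode lay within 2 mismatches of one at least 10 times larger shaded; mouse 6, with 1071 Rb1 and 1213 APC tumours, is left out to keep the scale. In mouse 12 the shaded part is 187 of 389 Rb1 tumours, and it is small in the other mice drawn.

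Leaving out these near barcodes, Rb1 passed in the share of at least 100000 cells, with a ratio of 0.38 ± 0.36 (11 of 13 mice above 0, exact sign-flip permutation test, adjusted p = 0.0161), beside APC (18.2% of targets called). In percentage points the same Rb1 difference did not pass (1.61, adjusted p = 0.212, same test). Without both near and matched tumours, the Rb1 share was 0% at the lowest, 11.7% at the median and 62.3% at the highest mouse, against 0.568%, 8.66% and 43.6% for inert. The ratio was then above 0 in 13 of 13 mice, from 0.19 to 1.32, with a mean of 0.56 ± 0.30 (1.48-fold; exact sign-flip permutation test, adjusted p = 0.00134; 18.2% called). In mouse 1 there were 0 such tumours of 32 for Rb1 against 2 of 257 for inert, so its positive ratio rests on the 0.5 added. In percentage points Rb1 was above inert in 12 of 13 mice, by 5.69 ± 6.44 (adjusted p = 0.00403, same test). At the 95th percentile Rb1 did not pass there either (0.58 ± 1.02, 10 of 13 mice, adjusted p = 0.186, same test). The Rb1 tumours fell from 3494 to 2102 under both removals and those of at least 100000 cells from 250 to 243. Leaving out matched tumours alone removed 1198 Rb1 tumours (34.3%) against 3217 of 12177 inert ones (26.4%). Leaving out near barcodes alone left 3300 Rb1 and 12134 inert tumours. Both removals thus took a larger part of the small Rb1 tumours, which raises the Rb1 share. The part of this in the Rb1 calls was not tested.

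Cdkn2a encodes p16INK4A, an inhibitor of the kinases that inactivate Rb1, and p19ARF, which stabilises p53. Its 95th percentile was 9398 cells at the lowest, 172284 at the median and 843016 at the highest mouse. The log2 ratio was 0.27 ± 0.50 at that percentile and 0.31 ± 0.56 in the share of at least 100000 cells (adjusted p = 0.21, exact sign-flip permutation test), each above 0 in 9 of 13 mice. Cdkn2a was thus not called at either measure. Without matched tumours its share of at least 10000 cells was 5.60%, 27.5% and 61.2%, higher than inert in 11 of 13 mice (log2 0.29 ± 0.27, adjusted p = 0.00985, same test).

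Among the chromatin and RNA processing genes, Setd2 had the value that turned with the treatment of matched tumours. On all tumours its 95th percentile was 9601 cells at the lowest, 118620 at the median and 828227 at the highest mouse (log2 ratio 0.11 ± 0.98, above 0 in 10 of 13). Its share of at least 100000 cells was 0%, 6.01% and 18.4% (ratio -0.03 ± 0.56), and its share of at least 10000 cells was 4.65%, 13.1% and 33.5%, against 4.44%, 14.7% and 37.5% for inert (ratio -0.08). None of these passed. Without matched tumours the last ratio was 0.36 ± 0.28 and above 0 in 13 of 13 mice (exact sign-flip permutation test, adjusted p = 0.00134). The median ratio was then 0.77 ± 1.12 (13 of 13 mice, adjusted p = 0.00134, same test), and APC and Setd2 were the 2 targets called there (18.2%). The share of at least 100000 cells did not pass (0.42 ± 0.59, 11 of 13 mice, adjusted p = 0.118, same test). Leaving out matched tumours removed 1398 of 3174 Setd2 tumours (44.0%) against 3217 of 12177 inert ones (26.4%), mostly under 10000 cells. Removing more small tumours of a vector raises its median and its shares above a fixed size. These calls therefore cannot show by themselves that Setd2 tumours were larger than inert ones.

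Setd2 also had the highest matched share of any vector. Its matched share was 25.7% at the lowest, 49.7% at the median and 72.7% at the highest mouse, against 9.16%, 28.7% and 61.8% for inert tumours. The log2 ratio was 0.83 ± 0.51, above 0 in 13 of 13 mice (exact sign-flip permutation test, adjusted p = 0.00134). APC came next, with 19.0%, 42.4% and 73.0% (0.55 ± 0.26, 13 of 13 mice, adjusted p = 0.00134, same test). Cdkn2a (0.17 ± 0.17, 11 of 13 mice) and Rbm10 (0.20 ± 0.18, 10 of 12 mice) were the other 2 of 11 targets called (36.4%). For 259 of the 1398 matched Setd2 tumours (18.5%) the largest copy lay in a 9-week mouse that had received only the Setd2 guide. With copies counted only in 15-week mice the Setd2 share was 15.3%, 41.5% and 61.8% and its ratio was 0.61 ± 0.47. Leaving out only those matched tumours, Setd2 was not called at the median (0.29 ± 0.78, adjusted p = 0.283, same test) in mean cells (0.31 ± 0.49, adjusted p = 0.169, same test) or in the share of at least 10000 cells (0.19, adjusted p = 0.0633, same test), while APC was called at the 95th percentile (0.84, adjusted p = 0.00537, same test). With copies counted only in KLTC pool mice, Setd2 was again not called in the share of at least 10000 cells (0.13, adjusted p = 0.173, same test).

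**Figure D4:**
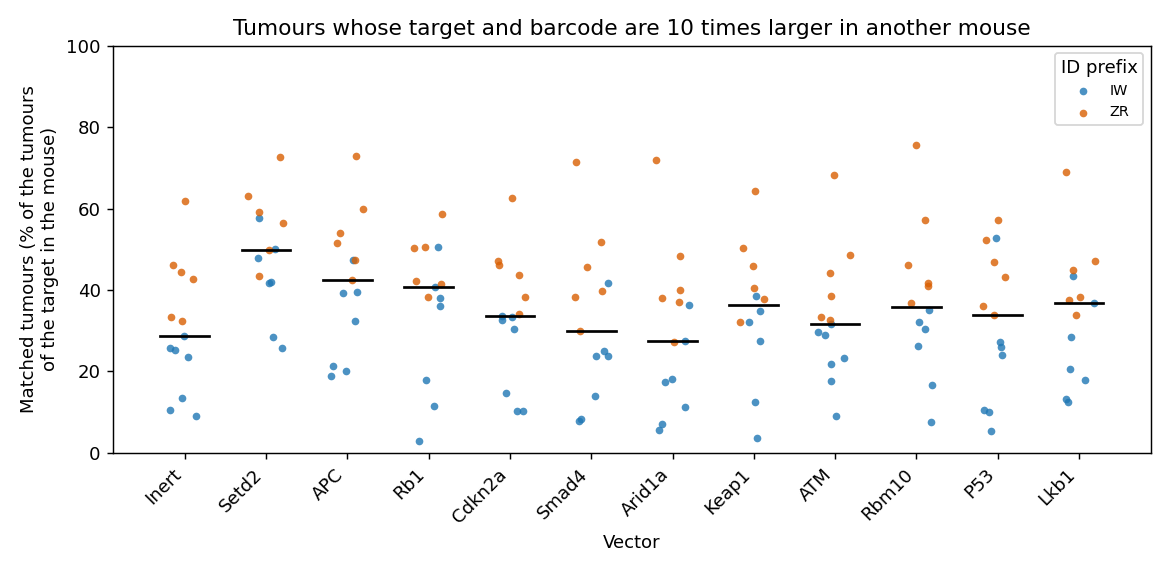
Percent of listed tumours of each vector that were matched, for each KLTC mouse (points) with the median as a line; Inert is the first column and the axis runs from 0 to 100%. The Setd2 median of 49.7% and the APC median of 42.4% are the highest, against 28.7% for inert.

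Arid1a, a subunit of the SWI/SNF remodelling complex, and Rbm10, a splicing factor, did not pass the test in tumour size on all tumours. The share of at least 100000 cells was 8.62% in the middle mouse for Arid1a and 9.50% for Rbm10. Their log2 ratios in that share were 0.27 and 0.02, and at the 95th percentile 0.32 and -0.29.

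P53 (Trp53) is the stress-activated transcription factor, and ATM the kinase that signals DNA double-strand breaks. On all tumours neither was called at the 95th percentile or in the share of at least 100000 cells. The 95th percentile of P53 tumours was 3728 cells at the lowest, 100305 at the median and 603343 at the highest mouse (log2 ratio -0.18, above 0 in 7 of 13). Its share of at least 100000 cells was above the inert share in 3 of 13 mice (-0.32 ± 0.57, adjusted p = 0.21, exact sign-flip permutation test). For ATM the ratios were -0.11 and 0.08. Without matched tumours the P53 share of at least 10000 cells was 2.02%, 20% and 60.4%, and fell below inert in 11 of 13 mice (log2 -0.25 ± 0.38, adjusted p = 0.0462, same test). It was the only target called lower in that share (9.09%), while APC, Setd2, Cdkn2a and Smad4 were called higher (36.4%). The P53 call was lost with matches only in 15-week mice (-0.25, adjusted p = 0.0575, same test), with matches only in KLTC pool mice (-0.24, adjusted p = 0.0631, same test) and without near and matched barcodes (-0.22, adjusted p = 0.0765, same test).

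Single P53 tumours took large parts of the burden, the summed cells of all listed tumours of a mouse. P53 tumours made up 5.0% of the burden at the lowest, 9.71% at the median and 48.6% at the highest mouse. In mouse 6, the highest, 1 P53 tumour of 40799630 cells was 43.4% of the burden. In mouse 12 they made up 25.2%, and the largest had 110797850 cells. Rb1 likewise ranged from 4.48% to 34.6% with a median of 8.76%, the highest in mouse 12. APC tumours made up 5.46%, 9.62% and 13.5%, while inert tumours made up 11.1%, 24.8% and 43.6%. The Lkb1 guide took 3.73%, 5.21% and 12.4% of the burden, with 7.38% to 12.8% of the tumours. The burden share divided by the number share, relative to inert, exceeded 1 in 11 of 13 mice for Rb1 (0.346 to 5.67, median 1.40) and in 10 of 13 for APC (0.921 to 2.18, median 1.33). For P53 it did so in 6 of 13 mice, with a median of 0.936 and a highest value of 8.85.

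**Figure D5:**
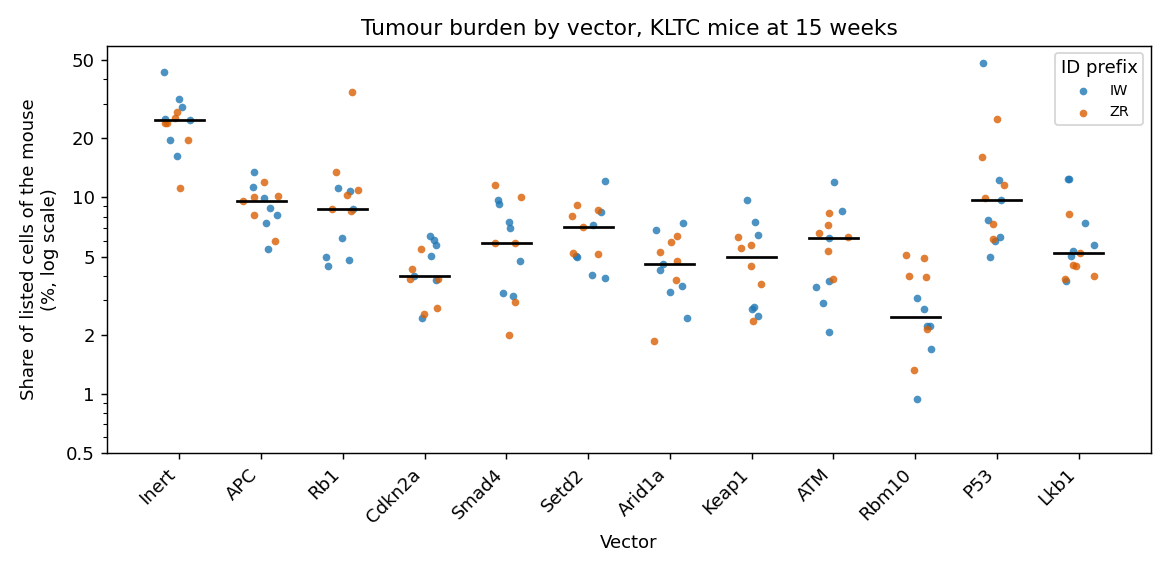
Share of all listed tumour cells of a KLTC mouse that carried each vector, on a logarithmic axis, for vectors with at least 20 tumours in the mouse; points are mice and lines are medians. P53 reaches 48.6% in mouse 6 and Rb1 34.6% in mouse 12, while APC stays between 5.46% and 13.5%.

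Tumours of at least 1000000 cells were few: 252 in all, of which 51 were inert, 33 APC, 29 Rb1, 26 P53, 25 Setd2 and 9 Lkb1. The mice held 0 to 81 of them (median 14). The log2 ratio with 0.5 added called 10 of 11 targets here (90.9%), all except Lkb1, because mice without any inert tumour of that size take their ratio from the 0.5 and from the unequal numbers of tumours. No difference is read from it. As a difference in percentage points no target was called; APC was 0.54 points above inert (adjusted p = 0.408, exact sign-flip permutation test) and was the single target with an unadjusted p under 0.05.

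Taking the Lkb1 guide in place of inert as the control, no target of 10 was called at the 95th percentile on all tumours (0%), and 3 had an unadjusted p under 0.05 in the exact sign-flip permutation test. APC had the ratio 0.98 ± 1.09 to Lkb1 tumours, above 0 in 11 of 13 mice (adjusted p = 0.0806, same test); it passed without mouse 3, and APC, Arid1a, Cdkn2a and Smad4 passed without mouse 5. Without matched tumours 5 of 10 targets were called (50%). They were APC (1.14 ± 0.97, adjusted p = 0.0269), Setd2 (0.89 ± 0.90), Cdkn2a (0.55 ± 0.61), Rb1 (0.70 ± 0.89) and Smad4 (0.61 ± 0.82), all by the exact sign-flip permutation test. Against inert, only APC was called at this percentile on the same tumours. The Lkb1 ratio to inert there had a median of -0.33 over mice and was above 0 in 5 of 13. Leaving out matched tumours removed 28.3% of Lkb1 tumours, and from 28.8% (Smad4) to 44.0% (Setd2) for the 5 targets.

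The same guides in mice that kept Lkb1 give the size of the genotype difference. The 95th percentile ratio to inert of the Lkb1 guide was -0.24 in KLTC and 1.86 in KTC mice, lower by -2.11 ± 0.34 (log2 difference ± SE, 13 and 10 mice; 2-sided permutation of mouse labels, adjusted p = 0.00011). Setd2 was at 0.11 in KLTC against 2.35 in KTC (-2.24 ± 0.38, adjusted p = 0.00011, same test), and its unadjusted p of 1e-05 is the smallest that 100000 permutations can give. These were the 2 of 11 targets called (18.2%), and both were called again without matched tumours, with differences of -2.25 and -2.18. APC was 0.74 in KLTC and 0.24 in KTC, a difference of 0.50 ± 0.23 that did not pass (adjusted p = 0.216, same test).

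Against the 12 KPTC mice the same 2 targets were called lower (18.2%). The Lkb1 guide was at 0.79 there, a difference of -1.03 ± 0.25 (permutation of mouse labels, adjusted p = 0.00231), and Setd2 at 1.36, a difference of -1.24 ± 0.36 (adjusted p = 0.00313, same test). The APC ratio was 0.34 in KPTC mice, a difference of 0.40 ± 0.22 that did not pass (adjusted p = 0.248, same test). Rb1 went the other way, with 0.35 in KLTC and 0.86 in KPTC (-0.52 ± 0.27, adjusted p = 0.248, same test). Both comparisons use the same KLTC mice. The identifier prefixes were not shared evenly: ZR mice were found only in KLTC among these 3 groups, KTC held 8 IW and 2 MW mice, and KPTC held 7 IW mice and 5 without a prefix. Among IW mice alone both targets were again called against KTC (Lkb1 -2.30, Setd2 -2.34, each with adjusted p = 0.00256, exact permutation of mouse labels). Against KPTC no target was called among IW mice (0 of 11), with Lkb1 at -1.003 (adjusted p = 0.151, same test) and Setd2 at -1.18 (adjusted p = 0.103, same test). The part of the prefix in the genotype differences was not tested further. Among tumours of at least 5000 cells no target was called against KPTC, and without barcodes listed in another mouse none was called against either genotype. In KLTC mice the latter removal left 7.11% of the tumours of 100000 to 1000000 cells, so it cannot decide about large tumours.

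The number of tumours per inert tumour was also compared between genotypes. Against KTC no target passed (0%), although 3 had unadjusted p-values below 0.05 by permutation of mouse labels. Against KPTC, 3 of 11 were called higher in KLTC (27.3%): Setd2 by 0.40 ± 0.10 on the log2 scale (permutation of mouse labels, adjusted p = 0.00473), P53 by 0.19 ± 0.05 (adjusted p = 0.00473, same test) and Lkb1 by 0.14 ± 0.04 (adjusted p = 0.0147, same test). No target was called in number without matched tumours. Among IW mice alone P53 (0.22, adjusted p = 0.0192, exact permutation of mouse labels) and Lkb1 (0.23, adjusted p = 0.0288, same test) were called in number against KPTC and Setd2 was not (0.25, adjusted p = 0.39, same test).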

How the data were processed

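Tumour sizes came from 1 deposited table that lists, for each mouse, vector target and 21-base barcode, a signal that the authors call the absolute number of cells per tumour. The sources used here do not give how reads were grouped into barcodes, how they were converted to cells or why no value lies under 500 cells. Sequencing depth is unknown, so no interval is given for a size. Mice were assigned by their identifiers to the genotype, time and virus in the labels. Within each mouse, targets with at least 20 tumours were compared with inert tumours by percentiles, shares above fixed sizes (0.5 added to each number) and mean cells, as log2 ratios. Tests were 2-sided exact sign-flip permutations over mice and, between genotypes, 100000 permutations of mouse labels, with Benjamini-Hochberg adjustment over the targets and a threshold of 0.05.

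All 11 targets are named, in 4 groups by function, with levels over mice for those called in any percentile or share test and for Lkb1. Barcodes are those listed in the most mice (3) and those of the largest tumours of called targets. The members and lists were chosen with earlier results of these data known. Barcodes within 2 mismatches of a 10 times larger one of the same mouse and target were left out as an alternative added after seeing the data, as were matches restricted to 15-week mice. Other alternatives were minimum sizes of 1000 and 5000 cells, at least 50 tumours, pseudocounts, percentage points, inert plus Lkb1 tumours as the control, each identifier prefix alone, no shared barcodes, no largest tumour, matches at 2 times, and each mouse left out. All 11 targets matched a RefSeq symbol or synonym. Scripts ran in Python 3.11.15 with numpy 2.4.6, pandas 2.3.3, scipy 1.17.1 and matplotlib 3.10.9 and were tested on simulated data.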

Additional observations from a re-analysis of the deposited data

Results flagged for a closer look

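The effect of the Lkb1 and Setd2 guides on the 95th percentile of tumour size differed between genotypes by a test of the difference itself. Relative to inert tumours, KLTC was below KTC by -2.11 (log2) for Lkb1 and -2.24 for Setd2. It was below KPTC by -1.03 for Lkb1 and -1.24 for Setd2. Both calls against KPTC were lost among IW mice alone and among tumours of at least 5000 cells. Without barcodes listed in another mouse, the calls against both genotypes were lost, but that removal leaves few large tumours. The number of tumours relative to inert was higher in KLTC than in KPTC by 0.14 for Lkb1, 0.19 for P53 and 0.40 for Setd2 on the log2 scale, and none of these 3 passed once matched tumours were left out.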

How the results depend on the processing

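Counts below are targets called, in the order of the report where several are given. Leaving out 1 mouse gave 0 to 0 targets at the median and at the 75th percentile, 1 to 2 at the 90th, 1 to 1 at the 95th, 0 to 2 in the share of at least 10000 cells, 1 to 2 in that of 100000, 5 to 10 in that of 1000000, 1 to 2 in mean cells, 0 to 4 against Lkb1 tumours and 4 to 5 in matched share. Between genotypes it gave 2 to 3 at the 95th percentile and 0 to 1 in number against KTC, and 2 to 2 and 3 to 3 against KPTC. The log2 difference in the inert 95th percentile between prefixes ranged from 2.10 to 3.05, and was 2.29 without mouse 12, 2.33 without mouse 13 and 0.86 at a minimum of 5000 cells.

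Without matched tumours, 2 targets were called at the median, 2 at the 75th percentile, 5 in the share of 10000 cells, 2 in mean cells, 5 against Lkb1 and 0 in number against KPTC; with matches only in 15-week mice these were 1, 1, 3, 1, 5 and 0, with 1 at the 95th percentile against KPTC, and with matches only in KLTC pool mice 1, 1, 4, 1, 5 and 1, again with 1 at the 95th percentile against KPTC. With matches at 2 times they were 2, 2, 3, 2 and 2, with 1 in number against KTC. Without near barcodes, 2 were called at the 90th percentile and 2 in the share of 100000 cells; without near and matched barcodes 3, 3 and 3 at the median, 75th and 90th percentile, 5 and 2 in the shares, 2 in mean cells, 5 against Lkb1, and 1 and 0 in number against KTC and KPTC. Without any barcode listed in another mouse, 0 were called at the 90th and 95th percentile, 2 and 9 in the shares of 10000 and 100000 cells, 0 in mean cells, 1 against Lkb1, 0 at the 95th percentile against either genotype and 1 in number against each. That removal left 169 of 2377 KLTC tumours of 100000 to 1000000 cells and 0 of the 252 larger ones. No difference is read from its counts at the upper sizes. A minimum of 1000 cells gave 1 at the 75th percentile, 0 at the 90th, 0 in mean cells and 9 in matched share. A minimum of 5000 cells gave 0 at the 95th percentile, in the share of 100000 cells and in mean cells, 5 in that of 1000000, 3 in number against KTC, and 0 for both measures against KPTC. Within either prefix alone, 0 were called at the 90th and 95th percentile, in the shares of 100000 and 1000000 cells, in mean cells and in matched share. In these sign-flip tests a single target at the smallest possible p cannot pass the adjustment with so few mice. IW alone gave 4 in number against KTC and 0 at the 95th percentile against KPTC. Inert plus Lkb1 tumours as the control gave 1 at the 75th percentile, 3 in the share of 10000 cells, and 4 and 1 at the 95th percentile against KTC and KPTC. Without the largest tumour, 0 were called at the 95th percentile and 2 in the share of 1000000 cells. At least 50 tumours per target gave 1 in number against KTC, and percentage points gave 0 in the share of 1000000 cells.

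Some single values turned sign. Setd2 became 0.89, 0.91 and 0.88 at the 75th percentile and 0.36, 0.34 and 0.35 in the share of 10000 cells without matched tumours, with matches at 2 times, and without near and matched barcodes. Without barcodes listed elsewhere its share of 100000 cells became 1.96 and the ATM ratio to Lkb1 tumours -1.26. Over all vectors and mice, 169 of 2377 tumours of 100000 to 1000000 cells remained there, and 0 of the 252 larger ones. The 0.5 added weighs heavily in such a share ratio, and no difference is read from these 2 values. In percentage points the share of 1000000 cells became -0.0797 for Arid1a, -0.0236 for Cdkn2a and -0.17 for Rbm10. At a minimum of 5000 cells the matched share became -0.65 for Cdkn2a and -0.89 for Rbm10, and the number ratio -0.56 (Lkb1) and -0.46 (Setd2) against KTC and -0.33 and -0.26 against KPTC. The causes of these changes were not tested. Targets and inert tumours were paired within a mouse. Mice were not paired between genotypes, because replicate numbers are in accession order and mark no shared animal.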
